A study of Mus musculus with 8 samples.

Results

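The genes described here are 5 that are best known from islet cells other than the insulin-secreting beta cell, or from serotonin-making cells: Gcg, Ppy, Irx1, Irx2 and Tph1. They were picked by name from the 3278 genes of the deposited table, and all 5 were found there by Ensembl identifier. The values come from RNA sequencing of MIN6-K8 cells, a mouse insulinoma line (wild-type, strain background IT6). The 4 control libraries came from untreated cells. The 4 other libraries came from cells given 40 µM selenomethionine (SeMet), the selenium form of methionine, for 6 days. The table carries the name of a list of differentially expressed genes, so every gene in it, the 5 included, was listed for a difference between these same 8 libraries. The tests below therefore describe the size and spread of each difference and are not independent evidence of it.

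Gcg encodes proglucagon, which alpha cells cut into glucagon and which intestinal endocrine cells cut into glucagon-like peptides. Ppy encodes pancreatic polypeptide, the hormone of the PP cells of the islet. Irx1 and Irx2 encode homeodomain transcription factors of the Iroquois family, which in islets are most abundant in alpha cells. Tph1 encodes tryptophan hydroxylase, the rate-limiting enzyme of serotonin synthesis outside the brain. Beta cells also use Tph1 and make more of it in pregnancy, when prolactin signalling acts on the islet, so Tph1 is not a marker of non-beta cells. In a culture measured in bulk, more cells of one kind and more RNA per cell cannot be told apart.

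The cells carried the hormone genes of their labelled type at high levels. Ins2 held 1115762 to 1494607 normalised counts per library, Ins1 held 386424 to 450157 and Iapp, which encodes the islet amyloid polypeptide stored with insulin, held 274038 to 344806. A normalised count is a count of reads scaled by the authors' size factor for that library. The listed genes held 8544454 to 11144953 recovered reads per library. Acinar markers (8 genes) and delta and epsilon cell genes (7 genes, among them Sst and Ghrl) were not among the listed genes and were not analysed here. Of 6 duct markers only the keratin gene Krt7 was listed, at 10118 ± 401 normalised counts in controls and 11248 ± 387 under SeMet (means ± SD of 4 libraries a group, as in all later values of this form). Of 11 stromal, endothelial and immune markers only the collagen gene Col1a1 was listed, at 16.2 ± 4.01 and 5.48 ± 2.96. The part of other cell types in the results below was not tested.

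All 5 genes were higher under SeMet, and in each of them the lowest SeMet library lay above the highest control library. The hormone genes Gcg and Ppy rose 2.20-fold and 1.81-fold, and Irx1, Irx2 and Tph1 rose 1.19-fold to 1.28-fold. Of all listed genes, 47.0% passed the limma test and were higher under SeMet, and 53.0% passed and were lower. In 40.3% of the genes every SeMet library lay above every control library. With p-values adjusted against the whole annotation of 55450 genes, 1086 of the 3278 listed genes (33.1%) passed and were higher, and 1253 passed and were lower. All 5 genes were among those that were higher. Because the table was chosen on this contrast, nothing is read from the count of 5.

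**Figure D1:**
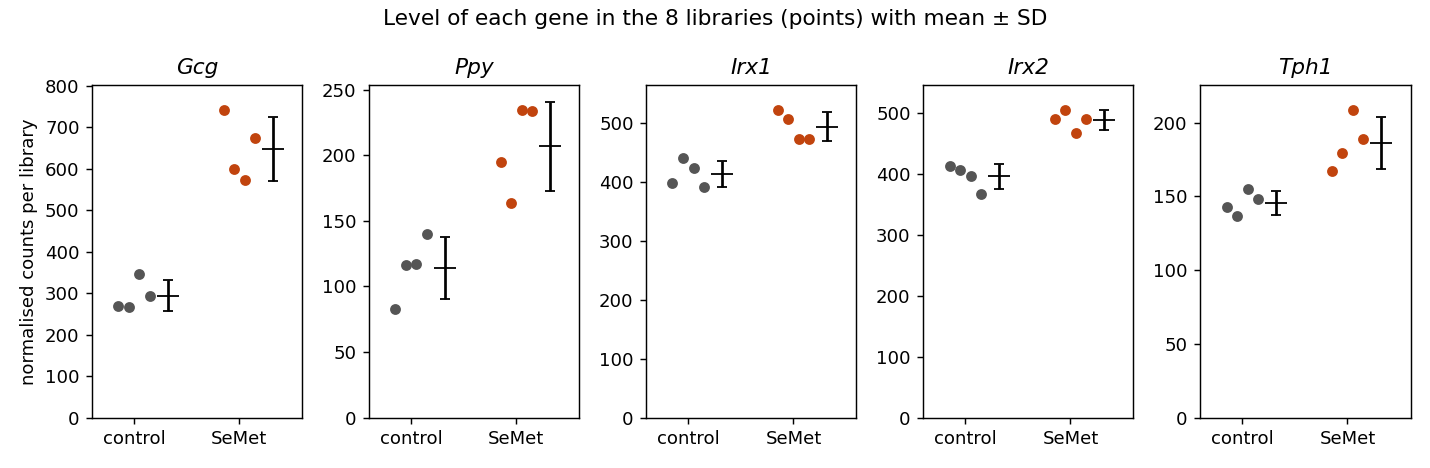
Normalised counts (vertical axes, starting at 0, a separate scale for each gene) of Gcg, Ppy, Irx1, Irx2 and Tph1 in the 4 control libraries and the 4 SeMet libraries; points are libraries and bars give mean ± SD. The groups are separate in every panel, widely for Gcg, which lies at 267 to 347 in controls and 572 to 742 under SeMet, and narrowly for Irx1 and Tph1.

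The promoter sequences of the hormone genes and of Irx2 are shown because the 5 genes moved in the same direction while the hormone genes moved most, and because these stretches differ in base composition. Each is the 250 bases before the RefSeq transcription start on GRCm38.p6, read 5′ to 3′ on the gene's own strand. Capitals mark TATAAA, the core of a TATA box, and TAAT, the core that homeodomain proteins bind, on either strand. A window was given for 4 of the 5 genes.
Gcg, chr2:62483654-62483903, minus strand: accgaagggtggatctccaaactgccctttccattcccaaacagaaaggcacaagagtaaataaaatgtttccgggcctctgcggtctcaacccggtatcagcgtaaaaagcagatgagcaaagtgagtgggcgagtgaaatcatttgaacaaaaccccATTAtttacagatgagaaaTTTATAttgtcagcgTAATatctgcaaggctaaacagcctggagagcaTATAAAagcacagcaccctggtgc
Ppy, chr11:102101320-102101569, minus strand: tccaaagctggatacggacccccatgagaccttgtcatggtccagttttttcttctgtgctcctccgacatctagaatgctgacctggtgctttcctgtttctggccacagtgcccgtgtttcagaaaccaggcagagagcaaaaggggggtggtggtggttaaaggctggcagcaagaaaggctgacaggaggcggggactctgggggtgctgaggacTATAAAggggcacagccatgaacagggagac
Irx2, chr13:72628570-72628819, plus strand: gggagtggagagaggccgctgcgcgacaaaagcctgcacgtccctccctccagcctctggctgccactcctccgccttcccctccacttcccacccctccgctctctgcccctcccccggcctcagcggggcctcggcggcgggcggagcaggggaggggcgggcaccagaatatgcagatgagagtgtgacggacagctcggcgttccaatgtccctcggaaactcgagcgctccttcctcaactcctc

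TATAAA began 24 bases before the start of Gcg and 31 bases before that of Ppy. Gcg held a second match, on the other strand, from 72 bases before the start. Of 32851 promoter windows of the same length, 12.4% held TATAAA on either strand. TAAT was found at 91 and 57 bases before the Gcg start, not in the Ppy or Irx2 window, and in 54.9% of all windows. The E-box letters CANNTG, which basic helix-loop-helix factors bind, occurred 3 times in the Gcg window, once in the Irx2 window and not in the Ppy window, against 66.2% of all windows with at least 1. GC content was 44.8% in the Gcg window, 55.2% in the Ppy window and 68.4% in the Irx2 window, where the median of all windows was 52.4%. The table of windows held 2 starts for Tph1. The window of the outer start held none of the 3 motifs, and that of the inner start held TAAT 3 times, where 2 matches on opposite strands overlap, and neither of the others. The cyclic AMP response element TGACGTCA, present in 1.55% of all windows, and ACANNTGT, a spelling bound by Iroquois proteins, present in 6.31%, were found in none of the 5 windows of these genes. Sequence further than 250 bases before a start was not searched, so elements there would be missed. No 2 matches in the 3 printed windows overlap, and matches describe letters, not binding.

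Gcg (ENSMUSG00000000394, chromosome 2, 62474530 to 62483650, minus strand, GENCODE M21 on GRCm38, the assembly that mm10 names) showed the largest difference of the 5. Control libraries 1 to 4 held 269, 267, 347 and 294 normalised counts, and SeMet libraries 1 to 4 held 742, 599, 572 and 673. Control 3 was the highest control, and the lowest SeMet library still lay 65.0% above it. The mean rose 2.20-fold, from 294 ± 37.0 to 647 ± 76.9, or by 1.13 ± 0.09 on the log2 scale, where ± gives the SE for every log2 value (limma adjusted p = 4.47e-08 within the table and 7.57e-07 against the whole annotation). Gcg ranked 53 of all listed genes by its rise. The gene rested on 234 to 332 recovered reads per control library and 575 to 776 per SeMet library. The spread between libraries, a coefficient of variation of 12.6% in controls and 11.9% under SeMet, was wider than the 5.94% and 3.83% that counting error alone would give.

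Ppy (ENSMUSG00000017316, chromosome 11, 102099930 to 102101319, minus strand) was the second of the 5 by size of difference. It held 82.8, 117, 117 and 140 normalised counts in the 4 controls in order and 195, 164, 235 and 233 in the 4 SeMet libraries. Control 1 was low, SeMet 2 was the lowest treated library, and the gap between SeMet 2 and the highest control was 17.3%. The mean rose 1.81-fold, from 114 ± 23.5 to 207 ± 34.0 (log2 fold change 0.86 ± 0.15, limma adjusted p = 0.000136 within the table and 0.0023 against the whole annotation). Ppy ranked 104 of all listed genes by its rise. It was also the most variable of the 5, with a coefficient of variation of 20.6% in controls and 16.4% under SeMet, against 9.47% and 6.79% from counting error on 72 to 158 and 176 to 252 recovered reads. Pyy, the neighbouring gene of peptide YY and the closest relative of Ppy, was not among the listed genes and was not analysed here.

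Irx1 and Irx2 lie 665 kb apart on chromosome 13, and both rose by small amounts. Irx1 (ENSMUSG00000060969, 71957921 to 71963723, minus strand) held 398, 439, 424 and 392 normalised counts in the 4 controls and 522, 506, 473 and 472 in the 4 SeMet libraries. Its groups were close, with the lowest SeMet library 7.52% above the highest control. The log2 fold change was 0.26 ± 0.06 (1.19-fold, 413 ± 22.3 to 493 ± 24.9, limma adjusted p = 0.00131 within the table and 0.0221 against the whole annotation).

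Irx2 (ENSMUSG00000001504, 72628820 to 72634198, plus strand) held 413, 406, 396 and 367 in the 4 controls and 489, 505, 466 and 490 in the 4 SeMet libraries. Control 4 was the lowest library and SeMet 3 the lowest of the treated ones, and the gap between the groups was 12.8%. The log2 fold change was 0.30 ± 0.06 (1.23-fold, 396 ± 20.2 to 487 ± 16.2, limma adjusted p = 0.000309 within the table and 0.00522 against the whole annotation). For both Iroquois genes the spread between libraries was close to counting error: coefficients of variation of 5.40% and 5.09% in controls stood beside 5.02% and 5.14% from counting alone. Of the 7 genes on the Iroquois family list, these were the 2 in the table. Both rises lie near the middle of the table's increases, whose median log2 fold change was 0.25.

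Tph1 (ENSMUSG00000040046, chromosome 7, 46644641 to 46672537, minus strand) held 143, 136, 155 and 149 normalised counts in the 4 controls and 167, 180, 209 and 189 in the 4 SeMet libraries. SeMet 3 was the highest library and SeMet 1 the lowest treated one, 7.76% above the highest control. The mean rose 1.28-fold, from 146 ± 8.10 to 186 ± 17.5 (log2 fold change 0.35 ± 0.10). Its limma adjusted p was 0.0028 within the table and 0.0474 against the whole annotation, the highest of the 5 genes under either adjustment. The control libraries varied by 5.55%, less than the 8.44% of counting error on 123 to 168 recovered reads, and the SeMet libraries by 9.39%, against 7.15%.

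**Figure D2:**
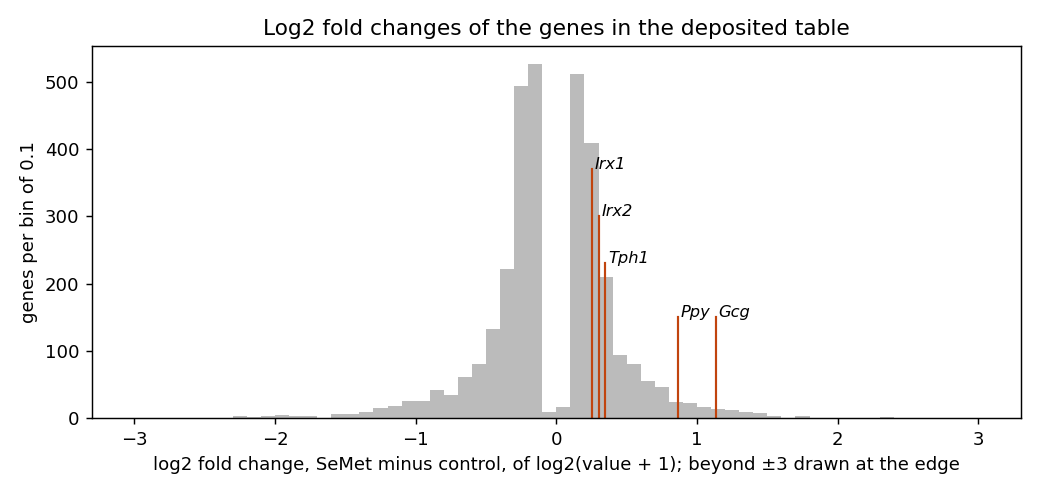
Histogram of the log2 fold change (horizontal axis, SeMet minus control, on the log2(value + 1) scale) of the 3278 genes in the deposited table, in bins of 0.1 (vertical axis, genes per bin), with lines at the 5 genes; line heights have no meaning. Only 25 genes lie within 0.1 of zero; Irx1, Irx2 and Tph1 lie in the bulk of the increases at 0.26 to 0.35, and Ppy and Gcg lie in the tail at 0.86 and 1.13.

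Per kilobase of annotated exon, the hormone genes stood highest and Tph1 lowest in both groups. In controls Ppy stood at 228 ± 47.0 normalised counts per kilobase and Gcg at 197 ± 24.8, with overlapping libraries. Irx1 followed at 158 ± 8.51, Irx2 at 121 ± 6.14 and Tph1 at 23.6 ± 1.31, each without overlap with the next, although the lowest Ppy library, at 166, lay just under the highest Irx1 library, at 168. Under SeMet, Gcg stood at 433 ± 51.5 and Ppy at 414 ± 68.0 per kilobase, again overlapping. Irx1 was at 188 ± 9.51, Irx2 at 148 ± 4.93 and Tph1 at 30.2 ± 2.84 per kilobase, again without overlap. The exon lengths, from 500 bases for Ppy to 6172 for Tph1, join all annotated transcripts, and the transcripts used by these cells were not determined.

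Whether the genes rose by different amounts was tested on the ratio of each pair within a library, which does not depend on the size factor. None of the 10 pairs passed after adjustment (exact permutation test over 8 libraries, two-sided, lowest adjusted p = 0.0952). For 3 pairs the ratios of the groups did not overlap, which gives the smallest p that 4 against 4 libraries allow, 0.0286. These were Gcg to Irx1, whose log2 ratio changed by 0.88 ± 0.12, Gcg to Irx2, by 0.83 ± 0.13, and Gcg to Tph1, by 0.79 ± 0.15. In an adjustment over 10 pairs, 3 pairs at the smallest p cannot pass, whatever the size of their changes. The lack of a pass therefore decides nothing about these 3 pairs. The log2 ratio of Gcg to Ppy changed by 0.27 ± 0.21, with overlapping groups (exact permutation test, adjusted p = 0.367). The log2 ratios of Ppy to Irx1, Irx2 and Tph1 changed by 0.61 ± 0.22, 0.56 ± 0.24 and 0.51 ± 0.18, with overlapping groups. Among Irx1, Irx2 and Tph1 the 3 changes in log2 ratio were -0.05 ± 0.05, -0.09 ± 0.12 and -0.05 ± 0.11.

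Relative to each insulin gene, all 5 were higher in every SeMet library than in every control library. Ins2 fell by 0.23 ± 0.05 on the log2 scale (limma adjusted p = 0.000496). Ins1 fell by 0.13 ± 0.05 within the table (limma adjusted p = 0.016), with overlapping groups, and did not pass against the whole annotation (limma adjusted p = 0.271) and neither did it once libraries were rescaled to their median ratio (limma adjusted p = 0.113). Leaving out SeMet library 2 or 3 also ended its call (limma adjusted p = 0.06 and 0.0615). The log2 ratio of Gcg to Ins2 rose by 1.36 ± 0.12 and that to Ins1 by 1.26 ± 0.11. For Ppy the changes in log2 ratio were 1.09 ± 0.19 to Ins2 and 0.99 ± 0.20 to Ins1. Irx1, Irx2 and Tph1 rose relative to Ins2 by 0.49 ± 0.07, 0.53 ± 0.09 and 0.58 ± 0.11 on the log2 scale. All 10 ratios to the insulin genes had the smallest p that the libraries allow (exact permutation test, two-sided, adjusted p = 0.0286), between genes that were all listed for differing. Every SeMet library lay below every control for Ins2 and above every control for each of the 5 genes. For Ins1 the groups overlapped, with 422368 in the lowest control and 439529 in the highest SeMet library. As a share, that overlap was smaller than the gap between the groups in each of the 5 genes (7.52% or more). The outcome of the tests against both insulin genes was thus fixed in advance by these values, and nothing is read from them.

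Iapp, unlike the insulin genes, rose under SeMet, by 0.18 ± 0.05 on the log2 scale (limma adjusted p = 0.00181). The comparison with Iapp was added after the data were seen. The log2 ratios of Gcg and Ppy to Iapp changed by 0.96 ± 0.12 and 0.68 ± 0.20, with groups that did not overlap (exact permutation test, adjusted p = 0.0714 for both, over 5 ratios). Those of Irx1, Irx2 and Tph1 changed by 0.08 ± 0.07, 0.12 ± 0.08 and 0.17 ± 0.11, with overlapping groups (exact permutation test, adjusted p = 0.371, 0.321 and 0.321). In an adjustment over 5 ratios, 2 at the smallest p cannot pass either, so the tests decide nothing about Gcg and Ppy against Iapp.

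**Figure D3:**
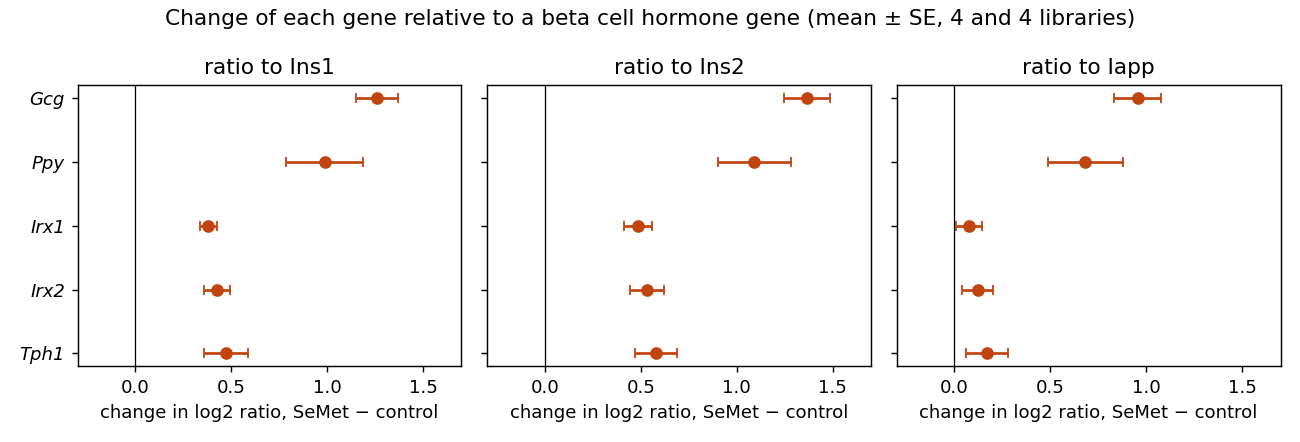
Change in the log2 ratio of each gene to Ins1, Ins2 and Iapp within a library (horizontal axes, SeMet minus control; points are mean differences, bars ± SE, 4 libraries per group). All ratios to the insulin genes lie above zero, from 0.38 for Irx1 to Ins1 to 1.36 for Gcg to Ins2, while against Iapp only Gcg and Ppy have groups that do not overlap.

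Within the groups, the 5 genes did not all vary together from library to library. Over the 8 libraries, deviations from the group means correlated at 0.50 between Irx1 and Irx2, 0.47 between Ppy and Tph1 and 0.21 between Gcg and Ppy. They correlated at -0.81 between Ppy and Irx2, -0.63 between Irx1 and Tph1 and -0.08 between Gcg and Irx2. These values are descriptions over few libraries that share a size factor. By Pearson correlation of the log2 level over the 8 libraries, the genes most like Gcg were Nnat (neuronatin, an endoplasmic reticulum protein, r = 0.995), Rpn1 (ribophorin I of the oligosaccharyltransferase, r = 0.990) and Slc39a8 (a zinc and manganese importer, r = 0.990). For Ppy they were Pdlim7, Nkiras1 and Tspan7 (r = 0.994, 0.977 and 0.976). For Irx1 they were Rfc2, Nudt7 and Ctsa (0.989, 0.986 and 0.984), for Irx2 they were Dnah9, Fads2 and Dab2ip (0.989, 0.988 and 0.987), and for Tph1 they were Kif5a, Igsf10 and Slc39a6 (0.983, 0.981 and 0.980). No member of the 5 was among the 3 nearest of another. All these points share the 2 groups, and for Gcg 530 listed genes had an r above 0.9.

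Genes typical of alpha cells went both ways. Of 12 on that list 7 were in the table, 5 rose and 2 fell, where 47.0% of all listed genes rose and 53.0% fell. The median log2 fold change of the 7 was 0.26, against -0.13 over all listed genes. Gcg, Irx1 and Irx2 are on the list and among those that rose, and the median is the value of Irx1. The count and the median are therefore not separate from the genes described here. Of the others, Slc38a5 and Dpp4 rose and Slc7a2 and Gc fell. Against the whole annotation, 4 of the 7 rose and 2 fell, beside 1086 (33.1%) higher and 1253 lower among the 3278 listed genes. Slc38a5, a glutamine transporter that alpha cells raise when amino acids are plentiful, held 2581, 2754, 2753 and 2586 normalised counts in controls and 4559, 4404, 4079 and 4445 under SeMet. These groups were far apart, at a log2 difference of 0.71 ± 0.04 (limma adjusted p = 8.91e-10 against the whole annotation). The cationic amino acid transporter gene Slc7a2 fell from 8472 ± 379 to 5471 ± 357 (log2 fold change -0.63 ± 0.04). Gc, which encodes the vitamin D binding protein, fell by 0.30 ± 0.08 on the log2 scale with overlapping groups. Dpp4, the next gene to Gcg at 62.3 kb, encodes the protease that inactivates glucagon-like peptide 1. It rose by 0.14 ± 0.04 on the log2 scale within the table and did not pass against the whole annotation (limma adjusted p = 0.0985).

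Of 9 PP cell genes, Ppy itself and Id4 were listed and both rose, where 47.0% of all listed genes passed and were higher. Id4, an inhibitor of basic helix-loop-helix factors, rose by 0.23 ± 0.07 on the log2 scale and did not pass against the whole annotation (limma adjusted p = 0.0521). Of 10 hormone genes of the gut endocrine system and the islet, Sct and Iapp were listed and both rose, beside the same 47.0%. Sct, the gene of the gut hormone secretin, held 484, 544, 503 and 540 normalised counts in controls and 828, 768, 748 and 839 under SeMet. Every treated library was well above every control, at a log2 difference of 0.62 ± 0.06 (limma adjusted p = 7.57e-07 against the whole annotation).

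Of 18 transcription factors known to act on Gcg or in alpha cells, 4 were listed, of which 1 rose and 3 fell by either adjustment. Their median log2 fold change was -0.16, where that of all listed genes was -0.13 and 53.0% of all listed genes passed and were lower. Maf, a large MAF factor that can activate Gcg, was scarce, at 14.9, 12.2, 12.7 and 11.5 normalised counts in controls and 4.78, 3.73, 1.99 and 5.56 under SeMet. It fell by 1.52 ± 0.36 on the log2 scale, and by 0.71 with a pseudocount of 10. Pax6, which acts on both Gcg and the insulin genes, fell from 15761 ± 152 to 14152 ± 220 and Nkx2-2 by 0.17 ± 0.04 on the log2 scale. The forkhead factor gene Foxa3 rose from 177 ± 21.6 to 230 ± 12.9. Of 14 genes chosen for a link to beta against alpha identity, 8 were listed, 2 rose and 6 fell (median log2 fold change -0.16). Not all of them are transcription factors. Beside them, 53.0% of all listed genes were lower, and the median of all listed genes was -0.13. Against the whole annotation, 2 rose and 5 fell. Mnx1 fell by 0.27 ± 0.04, Vhl, a subunit of the ubiquitin ligase that degrades hypoxia-inducible factors, by 0.23 ± 0.06 and Nkx6-1 by 0.20 ± 0.03 on the log2 scale. Pax4, a factor of beta cell development, rose from 1395 ± 153 to 1689 ± 87.3, and the SMAD inhibitor Smad7 from 351 ± 20.3 to 452 ± 8.49.

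Genes that act with Tph1 went both ways. Of 25 genes of serotonin synthesis, storage, uptake and sensing, 10 were listed, Tph1 included. Of these, 4 rose and 6 fell (median log2 fold change -0.18), a share near the 53.0% of all listed genes that were lower (median -0.13). Against the whole annotation, 3 rose and 4 fell. Ddc, the decarboxylase that makes serotonin from the product of Tph1, rose from 16929 ± 273 to 19054 ± 670. Pcbd1, which helps to regenerate the cofactor tetrahydrobiopterin, held 2149, 2119, 2062 and 2295 normalised counts in controls and 2944, 2848, 2506 and 2599 under SeMet. Its groups were separate, with a log2 fold change of 0.34 ± 0.05.

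Among the listed serotonin genes that fell, the prolactin receptor gene Prlr held 2847, 2326, 2803 and 2794 normalised counts in controls and 1584, 1545, 1910 and 1890 under SeMet. The groups were separate, control 2 was low, and the log2 difference was -0.64 ± 0.09 (limma adjusted p = 0.00231 against the whole annotation). The serotonin receptor gene Htr1d fell from 229 ± 20.2 to 164 ± 14.7. Fev, an ETS factor of serotonergic neurons and of endocrine precursors, was scarce, at 18.4, 25.5, 26.4 and 17.7 in controls and 11.5, 9.31, 15.9 and 5.56 under SeMet. It fell by 1.05 ± 0.30 on the log2 scale within the table (0.65 with a pseudocount of 10) and did not pass against the whole annotation (limma adjusted p = 0.0558).

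Of 12 genes that process prohormones, 9 were listed, 2 rose and 7 fell, where 47.0% of all listed genes rose and 53.0% fell. The median log2 fold change was -0.25, against -0.13 over all listed genes, and whether the group differs from the table was not tested. Against the whole annotation, 2 rose and 6 fell. Pcsk1, the convertase that cuts proinsulin and releases glucagon-like peptide 1 from proglucagon, held 6379, 5748, 6681 and 6318 normalised counts in controls and 3854, 3850, 4355 and 4441 under SeMet. These groups were well apart, with a log2 fold change of -0.61 ± 0.05. Pcsk2, which releases glucagon, was not in the table and was not analysed here. Furin and Pam, which amidates peptides such as pancreatic polypeptide, fell by 0.28 ± 0.04 and 0.27 ± 0.04 on the log2 scale. Cpe, which trims the cut ends, rose from 61374 ± 1187 to 69805 ± 4049, and the granin gene Chgb from 36997 ± 1643 to 41594 ± 1321. Of 12 genes for receptors of islet and gut peptide hormones and for peptide breakdown, 4 were listed, of which Dpp4 rose and 3 fell. The receptor genes Glp1r, Gipr and Sstr5 fell by 0.33 ± 0.05, 0.31 ± 0.06 and 0.48 ± 0.08 on the log2 scale, also against the whole annotation.

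**Figure D4:**
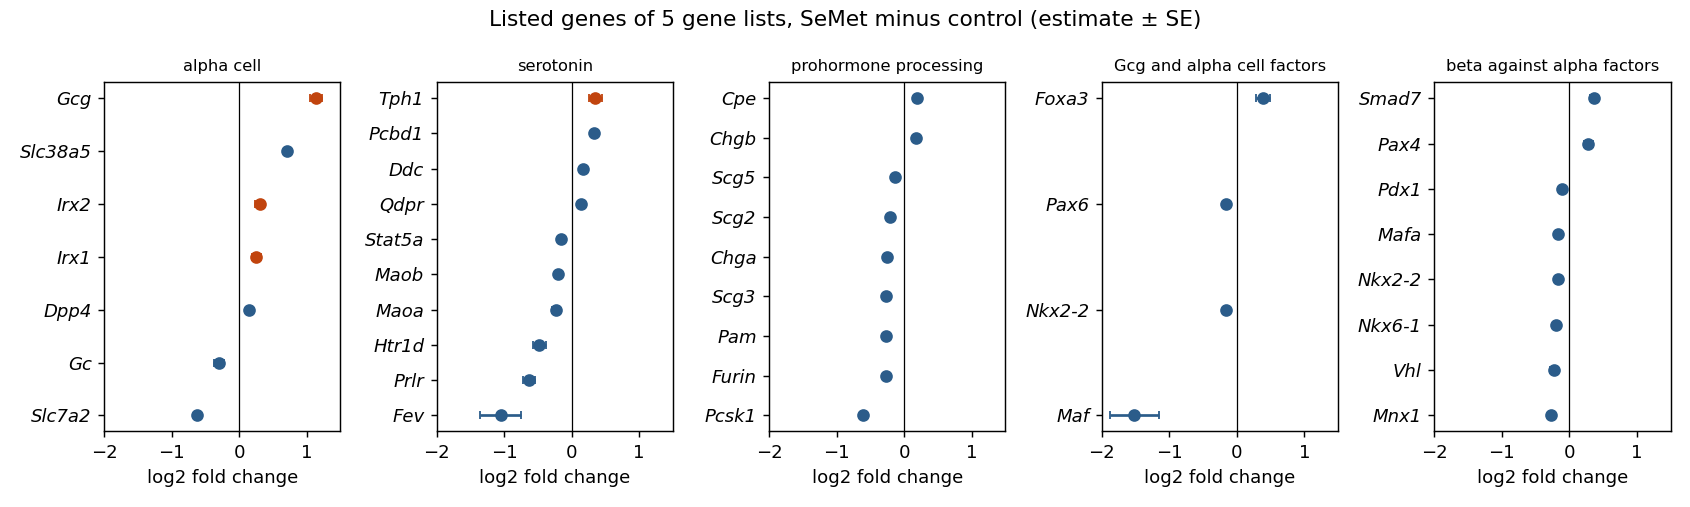
Log2 fold change (horizontal axes, SeMet minus control, estimate ± SE from limma) of the listed genes of 5 gene lists, with Gcg, Irx1, Irx2 and Tph1 in orange and other genes in blue. Alpha cell genes and serotonin genes lie on both sides of zero, while 7 of 9 prohormone processing genes, 3 of 4 Gcg and alpha cell factors and 6 of 8 beta against alpha factors lie below it. Of all listed genes, 53.0% passed and were lower, and whether any list differs from that share was not tested.

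Most chromosomal neighbours of the 5 genes were not in the table. Within 250 kb, 1 of 6 protein-coding neighbours of Gcg was listed (Dpp4), and 1 of 12 neighbours of Tph1, the lactate dehydrogenase gene Ldha at 169 kb, which fell by 2.50 ± 0.15 on the log2 scale. Of 19 neighbours of Ppy, 6 were listed, where 14.2% of all protein-coding genes were listed. Of those 6, 2 were higher and 4 lower under SeMet, beside 47.0% and 53.0% of all listed genes. The nearest of them, the scaffold gene Mpp2 at 11.4 kb, fell by 0.30 ± 0.05 on the log2 scale. Those that were higher were BC030867, with a log2 fold change of 0.26 ± 0.07, and Meox1, with 1.23 ± 0.38 from a low level and overlapping groups. Irx1 and Irx2 had no protein-coding neighbour within that distance. The window was chosen after the data were seen. No annotated gene overlapped any of the 5.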

How the data were processed

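RNA from 4 untreated and 4 SeMet-treated samples of MIN6-K8 cells was sequenced. STAR was used for alignment to mm10 and featureCounts for counting, per the submitters' processing notes. For versions, settings, strand and the authors' rule for listing genes, no statement was found in the sources used here. The unit of the deposited table is a signal per gene and library: a read count that the authors scaled by a size factor, as judged from the values. Every value (100%) was a whole multiple of 1 step within its library (tolerance 0.0001 reads), which gave the recovered reads. No count test was run on the recovered reads, which served only to describe depth and counting error. The labels do not say whether libraries of a group had separate cultures as their source, so the spread behind each p-value may be technical.

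The limma test (version 3.58.1, in R 4.3.3, with trended and robust variance and treatment as the only term) was fitted to log2(value + 1) of all 3278 genes, with Benjamini-Hochberg adjustment and a threshold of 0.05. Fold changes on this scale understate changes of low genes. A second adjustment, called against the whole annotation, set each unlisted gene of the 55450 annotated ones to a p of 1. Symbols matched 3276 identifiers. Ratios were tested by exact permutation (scipy 1.17.1, 70 assignments). Limma was tested on simulated data. The genes and lists were chosen with earlier results of these data known. Genes named were the 5, the 3 most correlated with each, the insulin genes, Iapp, and of each list all listed genes up to 6, or the 3 most changed each way; chromosomal neighbours were added after the data were seen. Mouse promoters came from RefSeq.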

Additional observations from a re-analysis of the deposited data

Results flagged for a closer look

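Of 120 groups of 4 libraries examined for the genes named and their neighbours, 6 held a library far from the other 3, where chance gives about 1 group in 20. None of them belonged to Gcg, Ppy, Irx1, Irx2 or Tph1. Ins1, the denominator of one set of ratios, held 439529 normalised counts in SeMet 1, against 386424 to 388782 in the other SeMet libraries. Prlr held 2326 in control 2, against 2794 to 2847 in the other controls. Cpe held 59607 in control 4, against 61761 to 62092. Dpp4 held 2381 in SeMet 2, against 2165 to 2197. Krt7 held 9518 in control 1, against 10281 to 10350. Dusp3, a neighbour of Ppy, held 994 in SeMet 1, against 1065 to 1074.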

How the results depend on the processing

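The 5 genes kept their direction and passed the threshold under each of the 16 alternatives run (2 other pseudocounts, a minimum mean of 100 normalised counts, 2 rescalings, limma without trend and robust estimates, a replicate block, the wider adjustment, and each library left out in turn). Most listed genes did so too. Of the 3278 listed genes, 1541 passed and were higher in the main fit, 1529 to 1538 with a library left out, and 1086 under the wider adjustment. Nothing is therefore read from the 5 genes passing. The log2 fold change ranged from 1.07 to 1.22 for Gcg, 0.72 to 0.97 for Ppy, 0.23 to 0.30 for Irx1, 0.27 to 0.35 for Irx2 and 0.29 to 0.40 for Tph1, with a highest limma adjusted p of 0.0474, for Tph1 under the wider adjustment. Rescaling by the median ratio shifted all log2 fold changes up by about 0.04. The change in the log2 ratio of Irx2 to Tph1, which passed no test, turned from -0.05 to 0.031 without SeMet replicate 3, and ranged from -0.099 to 0.031 with each library left out in turn. The ratio tests have no adjusted p with a library left out, because 3 against 4 libraries cannot reach the threshold. Replicate numbers gave little sign of pairing over the table: deviations of same-numbered libraries correlated at 0.01, 0.15, 0.02 and -0.01, and only number 2 correlated best with its own number. The labels do not say whether libraries were paired, and so few libraries cannot decide it. With the replicate block, 1539 listed genes passed and were higher and 1733 lower, against 1541 and 1736 without it, and Ppy had a log2 fold change of 0.86 ± 0.12. Depth limits Ppy and Tph1 most, with as few as 72 and 123 reads in a library.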
